A study of Mus musculus with 8 samples.

Results

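ATP and adenosine signalling and turnover was followed through 10 genes in primary mouse microglia. They were 3 receptors for extracellular nucleotides (P2ry6, P2rx4 and P2rx7), the surface enzyme Entpd1, 3 adenosine receptors (Adora2a, Adora2b and Adora3) and 3 enzymes of adenosine and AMP turnover (Ada, Adk and Ampd3). The genes were chosen by name for these roles, with earlier results of these data known. All 10 were found among the 54373 named gene models of the table. Each gene was read from the model that carries its name alone, or from a joined model where no other was listed. This was the case for P2rx7, joined with Mir8115, and for Ampd3, joined with Gm47282. Both partners are annotated as miRNA genes lying inside the member, so the joined value stands for both.

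ATP leaves stressed and dying cells and acts as an alarm signal on P2X channels and P2Y receptors, through which microglia sense damage and direct their processes and phagocytosis. Ectonucleotidases at the cell surface take ATP down to AMP and then to adenosine, which acts on its own G protein-coupled receptors and often dampens inflammatory responses. Inside the cell adenosine is either phosphorylated back to AMP or deaminated to inosine, and AMP is deaminated to IMP. Lack of oxygen and glucose shifts the balance of ATP, ADP and AMP, so these steps are of interest in ischaemia.

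The 8 libraries were 4 groups of 2, made from cultures of microglia of C57BL/6 mice at postnatal day 2. OGD_PARP14 carried a CRISPR activation plasmid for PARP14 (ACT-PARP14) and OGD_Con a control plasmid (ACT-Con), both with oxygen and glucose deprivation (OGD), which models ischaemia in culture. PARP14 and Con carried the same plasmids and have no OGD in their titles. The protocol text gives 24 h of transfection and 6 h of OGD for every sample, so the groups without OGD rest on the titles. According to the series text the data came from 2 independent experiments, and p-values measure only how far these libraries spread, part of which may be technical.

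The gene model that holds the Parp14 transcripts, listed as Gm49730, had 55.8 and 54.6 FPKM (fragments per kilobase of model, scaled to the mapped fragments) in the libraries labelled OGD_PARP14, 12.5 and 53.7 FPKM in OGD_Con, 12.2 and 11.5 FPKM in PARP14, and 61.4 and 50.7 FPKM in Con. This goes against the labels, and plasmid groups are therefore named only as labelled. OGD_PARP14 replicate 2 stood apart: its correlations with the other libraries were 0.880 to 0.903, against 0.945 to 0.986 among all other pairs. The OGD effects are therefore given with and without it. Without it the OGD_PARP14 group is 1 library, and its spread is taken from the other groups. Estimated depth was 13.6 to 17.2 M fragments per library. Microglial markers dominated: 8 of 9 were at or above 1 FPKM in all libraries, with a summed level of 1627 to 2383 FPKM, while the Trem2 model taken was listed at 0. Summed markers of astrocytes, neurons, oligodendrocyte lineage, endothelium, fibroblasts and mural cells, and peripheral leukocytes stayed between 0.154 and 10.5 FPKM, and Cd3e and Ly6g were listed at 0 throughout. The highest microglial, oligodendrocyte, fibroblast and leukocyte sums and the lowest astrocyte, neuron and endothelial sums all came from OGD_PARP14 replicate 2, and their part in the results was not tested.

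In these cells the nucleotide receptors and turnover enzymes were expressed and the adenosine receptors averaged under 1 FPKM. Averaged over the 8 libraries, P2ry6 was the most abundant at 41.0 FPKM, and 90.8% of the 11146 models tested had a lower mean. Next came Ampd3 at 18.6 FPKM, P2rx4 at 18.0 FPKM, Entpd1 at 9.07 FPKM, Adk at 8.55 FPKM, P2rx7 at 6.71 FPKM and Ada at 4.42 FPKM. Adora3 at 0.736 FPKM, Adora2b at 0.313 FPKM and Adora2a at 0.106 FPKM closed the order. Ranges over libraries did not overlap between P2ry6 and Ampd3, P2rx4 and Entpd1, P2rx7 and Ada, or Ada and Adora3; all other neighbours in this order overlapped. FPKM is scaled by length, so these levels can be set side by side.

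**Figure D1:**
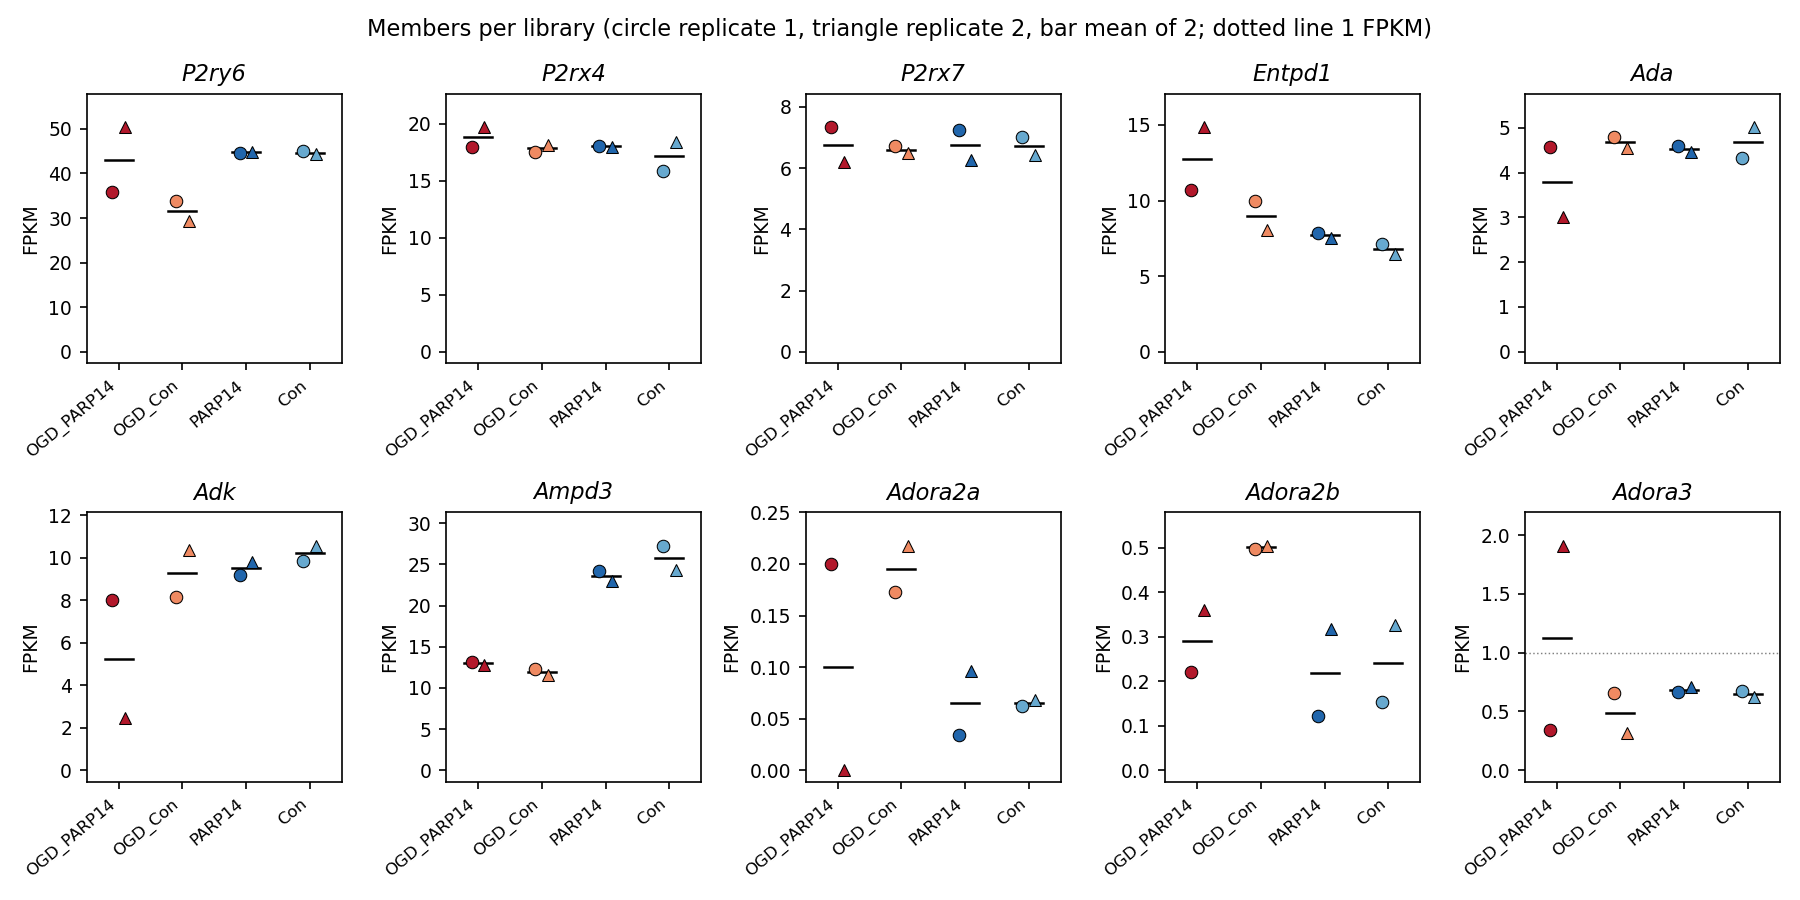
FPKM of each of the 10 genes (y axis, a scale of its own per gene) in the 4 groups (x axis), with a circle for replicate 1, a triangle for replicate 2 and a bar at their mean. Ampd3 is between 11.5 and 13.1 FPKM in all 4 libraries with OGD and between 23.0 and 27.3 FPKM in all 4 without, and OGD_PARP14 replicate 2 lies away from its partner in P2ry6, Entpd1, Ada, Adk, Adora2a and Adora3.

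Of the 10 members, 7 reached 1 FPKM in at least 2 libraries and were tested with limma on log2(FPKM + 1), a scale that understates the change of low genes, with Benjamini-Hochberg adjustment over all 11146 models and a call at an adjusted p under 0.05. Across the mean OGD effect over both plasmids, Ampd3 was the 1 member of 7 called, in the lower direction. In the same comparison 6.17% of all models tested were called, 2.65% higher and 3.53% lower. Without OGD_PARP14 replicate 2, 3 of 7 were called: Entpd1 was higher and P2ry6 and Ampd3 were lower, where 32.8% of all models were called. Shares this near the background are no result particular to these genes. In bulk RNA, fewer cells of a type and less RNA per cell cannot be told apart.

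Ampd3, which encodes an AMP deaminase that turns AMP into IMP, fell in the mean OGD effect. It had 13.1 and 12.8 FPKM in OGD_PARP14 and 12.3 and 11.5 FPKM in OGD_Con, against 24.2 and 23.0 FPKM in PARP14 and 27.3 and 24.4 FPKM in Con. All 4 libraries with OGD lay below all 4 without it, and the ratio of the means was 0.504. The library that stands apart in most members was close to its partner here. The mean OGD effect was a log2 fold change of -0.93 (SE 0.076, 95% interval -1.12 to -0.75, limma adjusted p = 0.00821), and it was -0.93 without OGD_PARP14 replicate 2 (adjusted p = 0.00140). Between OGD_Con and Con the log2 fold change was -1.05 (SE 0.11, adjusted p = 0.0475; 0.00310 without that library), and the call was lost with a pseudocount of 0.1 (adjusted p = 0.0550). Between OGD_PARP14 and PARP14 it was -0.81 (SE 0.11, adjusted p = 0.0737). This value was -0.80 without OGD_PARP14 replicate 2 and -0.83 without OGD_PARP14 replicate 1, each with only 1 library left in the group. With a pseudocount of 5 it was called (-0.67, limma adjusted p = 0.0390), but not with a pseudocount of 0.1 (adjusted p = 0.0968). A fit of only the libraries compared gave an adjusted p of 0.722, where 0 of all models were called. With same-numbered replicates fitted as a block, neither plasmid gave a call (adjusted p = 0.102 for OGD_Con against Con and 0.110 for OGD_PARP14 against PARP14). The mean OGD effect was still called with the block (adjusted p = 0.0224).

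The size of the Ampd3 difference held when single libraries were left out, while its call did not in the 6 omissions below. Few or no models of the whole table were called in those fits, so the loss is not particular to Ampd3. Leaving out in turn Con replicate 1 or 2, PARP14 replicate 1 or 2, or OGD_Con replicate 1 or 2 gave mean OGD effects of -0.97 to -0.90 with limma adjusted p-values of 0.0540 to 0.0819. For OGD_Con against Con the same 6 omissions gave log2 fold changes of -1.13 to -0.98 with adjusted p-values of 0.177 to 0.380. Rnf141, a protein-coding gene on the opposite strand that overlaps Ampd3, had 7.06 and 3.49 FPKM in OGD_PARP14 and 7.21 and 6.92 FPKM in OGD_Con, against 7.90 and 8.51 FPKM in PARP14 and 8.24 and 7.26 FPKM in Con. The libraries were stranded per the labels' protocols, but whether strand was used in counting is not given in the sources used here, so shared reads cannot be told apart.

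The model of Ampd3 spans chromosome 7 from 110768206 to 110812405 on the plus strand, and RefSeq gives the gene 3 promoter windows of 300 bases (250 before to 50 after each start). They were searched on both strands for ACGTG and GCGTG, the core letters bound by hypoxia-inducible factors, because OGD includes lack of oxygen. The second window, chr7:110772354-110772653 (GRCm38.p6, plus strand), is shown because it holds the CACGTG palindrome (capitals), in which ACGTG is read once on each strand.
Ampd3 second promoter: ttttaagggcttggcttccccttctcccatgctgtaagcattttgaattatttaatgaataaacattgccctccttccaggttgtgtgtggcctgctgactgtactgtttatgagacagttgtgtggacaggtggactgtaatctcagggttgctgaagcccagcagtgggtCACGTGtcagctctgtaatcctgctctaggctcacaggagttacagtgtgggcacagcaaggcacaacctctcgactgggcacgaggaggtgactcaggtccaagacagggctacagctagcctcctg
The other 2 Ampd3 windows hold neither core. A match is a description of letters and not a binding site, and 43.8% of the 32851 RefSeq promoters hold at least 1 core.

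Entpd1, the ectonucleotidase CD39 that takes ATP and ADP down to AMP, was higher in every library with OGD, but did not pass with all 8 libraries. It had 10.7 and 14.9 FPKM in OGD_PARP14 and 9.99 and 8.03 FPKM in OGD_Con, against 7.86 and 7.52 FPKM in PARP14 and 7.14 and 6.48 FPKM in Con. The lowest library with OGD, OGD_Con replicate 2, was just above the highest without it, and the highest of all was OGD_PARP14 replicate 2. The mean OGD effect was a log2 fold change of 0.50 (SE 0.13, 95% interval 0.19 to 0.81, limma adjusted p = 0.0796). Without OGD_PARP14 replicate 2 it was 0.39 (SE 0.092, adjusted p = 0.0290) and the ratio of the means was 1.32, and without OGD_PARP14 replicate 1 it was 0.61 (adjusted p = 0.00768). Within plasmids it was 0.65 for OGD_PARP14 against PARP14 (adjusted p = 0.216) and 0.35 for OGD_Con against Con (adjusted p = 0.355), and neither was called without that library (adjusted p = 0.123 and 0.0858).

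The Entpd1 model used spans chromosome 19 from 40612366 to 40741602 on the plus strand and starts where the first of its 2 RefSeq promoter windows has its start. That window, chr19:40612116-40612415 (GRCm38.p6, plus strand), is shown because it holds 1 GCGTG core (capitals), in front of the enzyme's listed start.
Entpd1 first promoter: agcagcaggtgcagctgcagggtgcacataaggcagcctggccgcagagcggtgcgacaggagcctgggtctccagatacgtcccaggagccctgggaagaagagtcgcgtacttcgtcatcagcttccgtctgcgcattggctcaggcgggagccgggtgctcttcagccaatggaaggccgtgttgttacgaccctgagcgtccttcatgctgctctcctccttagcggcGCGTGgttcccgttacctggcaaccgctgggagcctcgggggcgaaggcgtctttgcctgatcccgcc
A second model, which joins Entpd1 with the pseudogene Gm8783 around this start, was not used for the values above. It had 0.777 and 0.273 FPKM in OGD_PARP14 and 13.7 and 1.25 FPKM in OGD_Con, against 0.305 and 0.0854 FPKM in PARP14 and 0.0753 and 0.139 FPKM in Con. The second Entpd1 window holds neither core. Of the 13 windows of the 8 members in the RefSeq table, 5 (38.5%) hold at least 1 core, close to the 43.8% of all promoters.

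P2ry6 (chromosome 7, 100937630 to 100974649, minus strand), a receptor for UDP that drives phagocytosis in microglia, was the most abundant member and was lower in 3 of 4 libraries with OGD. It had 35.9 and 50.4 FPKM in OGD_PARP14 and 33.9 and 29.4 FPKM in OGD_Con, against 44.6 and 44.8 FPKM in PARP14 and 45.0 and 44.4 FPKM in Con. The 4 libraries without OGD lay close together, 3 with OGD lay below them, and OGD_PARP14 replicate 2 lay above them all. The mean OGD effect was a log2 fold change of -0.28 (SE 0.12, limma adjusted p = 0.225) over all 8 libraries. Without OGD_PARP14 replicate 2 P2ry6 fell, with a log2 fold change of -0.40 (SE 0.070, adjusted p = 0.0127) and a ratio of the means of 0.739. OGD_Con against Con, which does not contain that library, gave -0.49 in both fits, with adjusted p-values of 0.216 when the library helped set the spread and 0.0202 when it did not.

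P2rx4 and P2rx7, ATP-gated channels that differ in the ATP they need to open, gave no call in any comparison with all 8 libraries or without OGD_PARP14 replicate 2. Both lie on the plus strand of chromosome 5, P2rx7 at 122643911 to 122684297 and P2rx4 at 122707544 to 122729738. P2rx4 had 18.0 and 19.7 FPKM in OGD_PARP14 and 17.5 and 18.2 FPKM in OGD_Con, against 18.1 and 18.0 FPKM in PARP14 and 15.8 and 18.4 FPKM in Con. P2rx7, whose opening leads to inflammasome activation, had 7.34 and 6.20 FPKM in OGD_PARP14 and 6.71 and 6.50 FPKM in OGD_Con, against 7.23 and 6.27 FPKM in PARP14 and 7.00 and 6.43 FPKM in Con. Libraries with and without OGD overlapped for both channels. For P2rx4 the mean OGD effect was a log2 fold change of 0.06 (95% interval -0.14 to 0.26, limma adjusted p = 0.707), and 0.03 (adjusted p = 0.802) without OGD_PARP14 replicate 2. For P2rx7 it was -0.01 (95% interval -0.23 to 0.21, adjusted p = 0.959), and 0.04 (adjusted p = 0.674) without that library.

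The 3 adenosine receptors were low, and none passed the filter on low values. Adora2b (chromosome 11, 62248984 to 62266453, plus strand), the receptor with the lower affinity for adenosine, had 0.222 and 0.359 FPKM in OGD_PARP14 and 0.498 and 0.505 FPKM in OGD_Con, against 0.122 and 0.318 FPKM in PARP14 and 0.154 and 0.326 FPKM in Con. Its values correspond to an estimated 3.05 to 14.2 fragments per library on its single transcript. Both OGD_Con libraries were above all others, while OGD_PARP14 overlapped the libraries without OGD. Adora2a (chromosome 10, 75316877 to 75334784, plus strand), which raises cyclic AMP and restrains inflammatory activation, had 0.200 and 0 FPKM in OGD_PARP14 and 0.173 and 0.218 FPKM in OGD_Con, against 0.0343 and 0.0958 FPKM in PARP14 and 0.0627 and 0.0685 FPKM in Con. The 3 libraries with OGD other than OGD_PARP14 replicate 2 were above all libraries without OGD, at an estimated 8.61 fragments or fewer on the longest transcript. With no filter on low values the mean OGD effect of Adora2a was a log2 fold change of 0.10 (limma adjusted p = 0.553), and 0.17 (adjusted p = 0.0459) without OGD_PARP14 replicate 2.

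Adora3, a receptor that lowers cyclic AMP, reached 1 FPKM in 1 library. Its model (chromosome 3, 105870858 to 105908926, plus strand) overlaps Tmigd3 on the same strand, whose own model had at most 0.0322 FPKM. It had 0.345 and 1.91 FPKM in OGD_PARP14 and 0.654 and 0.319 FPKM in OGD_Con, against 0.663 and 0.704 FPKM in PARP14 and 0.673 and 0.621 FPKM in Con. The single high value was in OGD_PARP14 replicate 2, and OGD_Con replicate 1 lay among the libraries without OGD. With no filter, neither Adora3 (mean OGD effect 0.04, limma adjusted p = 0.966) nor Adora2b (0.18, adjusted p = 0.342) passed, and without OGD_PARP14 replicate 2 the adjusted p-values were 0.225 and 0.426. The promoter of Adora2b, chr11:62248734-62249033 (GRCm38.p6, plus strand), is shown because it holds 1 core: GCGTG on the minus strand, read as CACGC (capitals).
Adora2b promoter: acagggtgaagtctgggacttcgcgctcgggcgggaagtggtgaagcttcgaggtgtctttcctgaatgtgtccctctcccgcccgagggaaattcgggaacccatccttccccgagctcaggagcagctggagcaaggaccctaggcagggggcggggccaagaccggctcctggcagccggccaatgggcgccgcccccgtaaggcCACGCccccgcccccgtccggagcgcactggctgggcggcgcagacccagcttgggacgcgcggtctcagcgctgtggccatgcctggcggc
The Adora3 window holds neither core, and no window of Adora2a was searched.

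Ada and Adk, which remove adenosine by deamination and by phosphorylation, were not called in any comparison with all 8 libraries or without OGD_PARP14 replicate 2, and both had their lowest value in OGD_PARP14 replicate 2. Ada lies on the minus strand of chromosome 2 at 163726584 to 163750239, and Adk on the plus strand of chromosome 14 at 21052574 to 21448569. The Ada promoter window holds 2 GCGTG cores, the second Adk window holds 1 and the first Adk window holds neither core. Ada had 4.57 and 3.01 FPKM in OGD_PARP14 and 4.79 and 4.55 FPKM in OGD_Con, against 4.59 and 4.46 FPKM in PARP14 and 4.33 and 5.01 FPKM in Con. Adk had 8.00 and 2.48 FPKM in OGD_PARP14 and 8.15 and 10.4 FPKM in OGD_Con, against 9.20 and 9.79 FPKM in PARP14 and 9.83 and 10.6 FPKM in Con. Outside that library Ada varied within the range of the libraries without OGD. For Ada the mean OGD effect was a log2 fold change of -0.11 (95% interval -0.41 to 0.19, limma adjusted p = 0.612), and 0.0073 (adjusted p = 0.940) without OGD_PARP14 replicate 2. For Adk it was -0.52 (SE 0.30, adjusted p = 0.328), and -0.18 (adjusted p = 0.215) without that library. Without OGD_PARP14 replicate 1 instead, the Adk value was -0.86. OGD_PARP14 replicate 2, with the lowest Adk value, was then alone in its group.

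**Figure D2:**
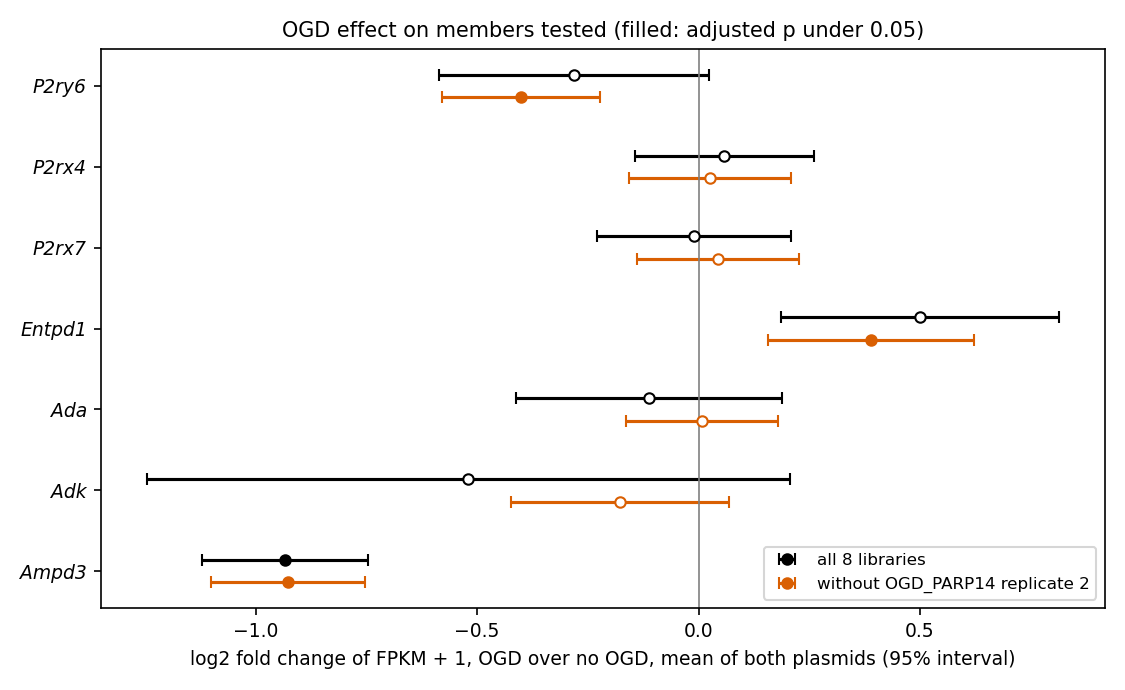
Mean OGD effect over both plasmids (x axis, log2 fold change of FPKM + 1, with the 95% interval) for the 7 members tested, over all 8 libraries (black) and without OGD_PARP14 replicate 2 (orange); filled points have a limma adjusted p under 0.05. Ampd3 sits at -0.93 in both fits, and the interval of Adk is wide only with all 8 libraries.

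Over all 10 members, 1 (Entpd1) lay higher in all 4 libraries with OGD than in all 4 without and 1 (Ampd3) lay lower, while 8 overlapped. Of the 7 members tested, 1 was higher, 1 was lower and 5 overlapped. Of all models tested, 23.9% were without overlap, 8.06% higher and 15.8% lower. Without OGD_PARP14 replicate 2 the counts over 10 members were 2 higher (Entpd1 and Adora2a) and 2 lower (P2ry6 and Ampd3). Adora2a was under the filter. Of the 7 members tested, 1 was then higher, 2 were lower and 4 overlapped. Of all models tested, 48.8% were without overlap, 22.1% higher and 26.7% lower. OGD_PARP14 replicate 2 held the highest or the lowest of the 8 values for 8 of 10 members, 4 in each direction. It did so for 59.3% of all models tested, and the second such library, OGD_Con replicate 2, for 5 members and 31.4% of models. The 10 members include 3 under the filter, and the models tested hold none of these.

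**Figure D3:**
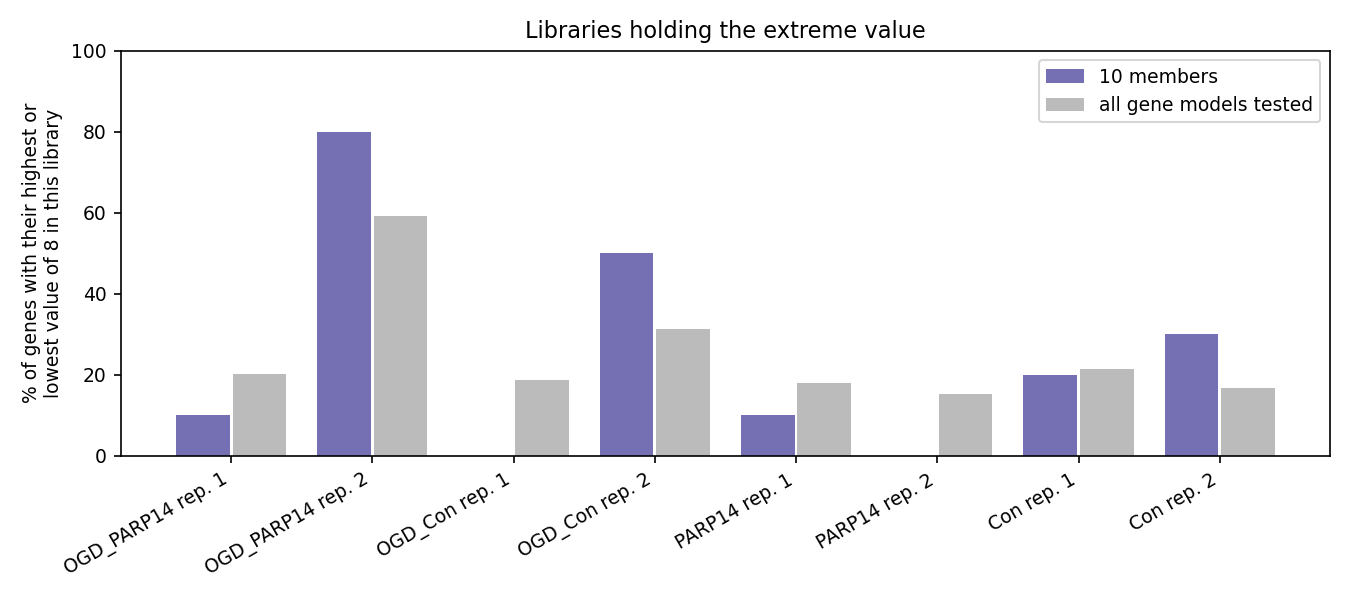
Share of genes (y axis, percent) whose highest or lowest value of the 8 fell in each library (x axis), for the 10 members (purple) and for all models tested (grey). OGD_PARP14 replicate 2 holds such a value for 80% of members and 59.3% of models. The members include 3 that were under the filter and not among the models tested.

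The plasmid comparisons, which ask whether the plasmid labelled PARP14 altered these genes, gave no call for any member with all 8 libraries or without OGD_PARP14 replicate 2. For OGD_PARP14 against OGD_Con, limma called 0 of 7 members (1, Entpd1, at an unadjusted p under 0.05) and 0% of all models (387 unadjusted). The log2 fold changes were 0.42 for P2ry6, 0.45 for Entpd1 and -0.87 for Adk, each with an adjusted p of 0.571. Without OGD_PARP14 replicate 2 they were 0.18, 0.23 and -0.18, again with 0 calls (0 also unadjusted), where 0.0987% of models were called. Leaving out OGD_PARP14 replicate 1 instead left the library that stands apart alone in its group. The log2 fold changes of this comparison were then 0.66 for P2ry6, 0.67 for Entpd1, -0.50 for Ada and -1.55 for Adk. Those of OGD_PARP14 against PARP14 were 0.87 for Entpd1, -0.46 for Ada, -1.59 for Adk and -0.83 for Ampd3. The interaction was 0.66 for P2ry6 and -1.46 for Adk. These values rest on that 1 library, and models over the whole table shifted with it. For PARP14 against Con 0 of 7 members were called (0 unadjusted), with 0.00897% of models called, and 0.0538% without OGD_PARP14 replicate 2. The interaction of OGD and plasmid also called 0 of 7 (0 unadjusted) and 0.00897% of models, or 0.0807% without that library, and for Ampd3 it was 0.24 on the log2 scale (adjusted p = 0.824). For OGD_PARP14 against PARP14 0 of 7 members were called (2 unadjusted, Ampd3 and Entpd1), with 0.215% of models called, and 1 of 7 (Ampd3) without OGD_PARP14 replicate 2, where 10.7% were called. For OGD_Con against Con 1 of 7 (Ampd3) was called, with 0.269% of models called, and 2 of 7 (Ampd3 and P2ry6) without that library, where 23.1% were called.

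The other genes of the purinergic pathway gave the setting of these values. A list of 79 genes covers ATP release, P2 and adenosine receptors, ectonucleotidases, nucleoside transporters, adenosine and AMP turnover and adenylate kinases, and includes the members. All 79 were found, and 48 in 47 models were tested, since Pnp and Pnp2 share a model. With all 8 libraries, Ampd3 was the 1 gene of 47 called in the mean OGD effect (0 higher, 1 lower), where 6.17% of all models were called. It was also the 1 gene called in OGD_Con against Con, where 0.269% were called. Limma called 0 of 47 for OGD_PARP14 against PARP14 (6 unadjusted), where 0.215% of all 11146 models were called (1617 models unadjusted). Without OGD_PARP14 replicate 2 the mean OGD effect held 6 higher and 8 lower of 47, where 14.9% of all models were called higher and 17.9% lower. The median log2 fold change of the list was then 0.018, against -0.018 over all models. The same omission gave 3 higher and 7 lower for OGD_Con against Con, where 10.7% of models were called higher and 12.4% lower. It gave 2 higher and 5 lower for OGD_PARP14 against PARP14, where 5.54% and 5.17% were called. In the plasmid comparisons and the interaction the list held 0 calls in either fit, with 0 to 3 genes at an unadjusted p under 0.05.

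Among the other P2 receptors, P2ry2, which ATP and UTP activate, rose without OGD_PARP14 replicate 2 (log2 fold change 1.75, limma adjusted p = 0.00174). It had 9.43 and 2.31 FPKM in OGD_PARP14 and 5.46 and 7.38 FPKM in OGD_Con, against 1.91 and 1.61 FPKM in PARP14 and 1.78 and 1.17 FPKM in Con. The libraries with OGD all lay above those without, by least in OGD_PARP14 replicate 2, and with all 8 the log2 fold change was 1.34 (adjusted p = 0.0901). P2ry2 and P2ry6 are both on chromosome 7 and minus strand, at 100996568 to 101011998 and 100937630 to 100974649, and in 3 of the 4 libraries with OGD they lay on opposite sides of the libraries without it. P2ry12, the ADP receptor that guides microglial processes to damage, was low at 1.99 to 3.95 FPKM over the 8 libraries, and P2ry13 had 1.09 to 3.00 FPKM. Neither was called.

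In the chain from AMP to adenosine the surface enzyme was at the detection limit. Nt5e (CD73), which takes extracellular AMP to adenosine, had at most 0.0230 FPKM in any library, and the adenosine receptor Adora1 at most 0.0692 FPKM. Of the other genes listed as ectonucleotidases, Enpp1, which cleaves ATP to AMP and pyrophosphate, rose without OGD_PARP14 replicate 2 (log2 fold change 0.30). Enpp4 (-0.77) and Entpd6 (-0.22) fell in the same fit. With all 8 libraries the values were 0.44 for Enpp1 (limma adjusted p = 0.104), -0.60 for Enpp4 (adjusted p = 0.0901) and -0.44 for Entpd6 (adjusted p = 0.216). Enpp4 had 4.63 and 8.05 FPKM in OGD_PARP14 and 4.55 and 5.02 FPKM in OGD_Con, against 9.32 and 9.12 FPKM in PARP14 and 9.06 and 7.59 FPKM in Con. The library left out was within the range of the libraries without OGD.

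Inside the cell, Ak4, the mitochondrial adenylate kinase known as a target of hypoxia signalling, showed the widest difference of the list. It had 8.03 and 0.158 FPKM in OGD_PARP14 and 8.80 and 9.51 FPKM in OGD_Con, against 0.328 and 0.328 FPKM in PARP14 and 0.310 and 0.371 FPKM in Con. The other 3 libraries with OGD were far above the rest, and OGD_PARP14 replicate 2 was the lowest of all 8. The mean OGD effect was 2.84 on the log2 scale without that library (limma adjusted p = 8.57e-05), against 2.10 with it (adjusted p = 0.102). For Ampd3, by contrast, this library lay beside its partner.

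Other intracellular enzymes fell in the fit without OGD_PARP14 replicate 2. Nt5c, a cytosolic nucleotidase, fell to 19.9 FPKM in OGD_PARP14 replicate 1 and 20.0 and 19.6 FPKM in OGD_Con, against 29.1 to 31.8 FPKM in the 4 libraries without OGD (-0.61, limma adjusted p = 0.00275). OGD_PARP14 replicate 2 had 34.0 FPKM. Ak3, a mitochondrial kinase that moves phosphate between GTP and AMP, fell by 0.52 (adjusted p = 0.00611), with its highest value, 24.4 FPKM, in OGD_PARP14 replicate 2. Nt5c3 (-0.49, adjusted p = 0.0115) and the joined model of Pnp, the purine nucleoside phosphorylase that splits inosine (-0.62, adjusted p = 0.00255), fell as well. Aprt, which salvages adenine to AMP (0.31, adjusted p = 0.0213), and Ahcyl1 (0.23, adjusted p = 0.0437) rose. With all 8 libraries none of the 6 was called: the log2 fold changes were -0.43 for Nt5c, -0.16 for Ak3, -0.62 for Nt5c3, -0.41 for the Pnp model, 0.27 for Aprt and 0.13 for Ahcyl1, with adjusted p-values of 0.0538 (Nt5c3) to 0.772 (Ak3). Pnp and Pnp2 are near copies in 1 joined model, so their shares cannot be told apart.

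**Figure D4:**
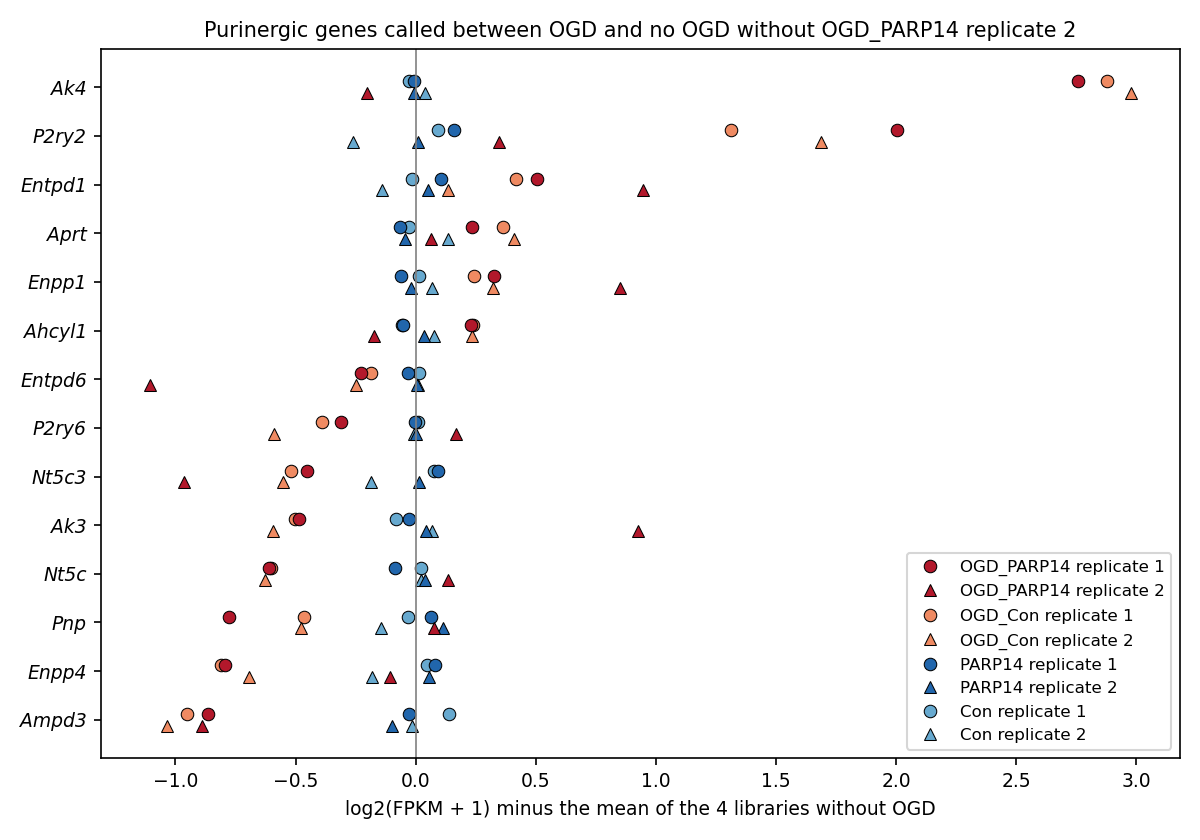
log2(FPKM + 1) in each library minus the mean of the 4 libraries without OGD (x axis) for the 14 pathway genes called without OGD_PARP14 replicate 2 (y axis). The red triangles, OGD_PARP14 replicate 2, lie with the other libraries with OGD for Ampd3 and near or beyond those without OGD for Ak4, P2ry6, Nt5c, Ak3 and Pnp.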

How the data were processed

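RNA of 8 libraries of primary mouse microglia was measured by poly(A) RNA-seq with stranded, paired-end libraries, per the labels' protocols. HISAT, StringTie and edgeR and the build mm9 are named in the submitters' processing notes, without versions. The authors deposited FPKM per gene model, in which StringTie divides fragments among assembled transcripts, so overlapping genes can share reads. Coordinates are as deposited; 9 of the 10 members have the span of GENCODE M21 on GRCm38. Depth, 13.6 to 17.2 M fragments per library, was estimated from the step between the lowest values, and values under 1 FPKM carry most counting error.

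Values were taken as log2(FPKM + 1). Named models that reached 1 FPKM in 2 or more of the 8 libraries were fitted with limma 3.58.1 (R 4.3.3) as 4 group means with 4 residual degrees of freedom, Benjamini-Hochberg adjusted over all 11146 models, and called at an adjusted p under 0.05. Fits without 1 library had 3 residual degrees of freedom, and the group left with 1 library took its spread from the other groups. The plan also named a count model, which FPKM does not allow. The procedure was tested on simulated data. Members and lists were chosen with earlier results of these data known. All members are named, then pathway genes called with all 8 libraries or without OGD_PARP14 replicate 2, up to 8 per direction by p, and a few low pathway genes (Nt5e, Adora1, P2ry12 and P2ry13) chosen after their values were seen. Alternatives were other filters, pseudocounts, scalings, the replicate block, an intensity trend, fits of only the libraries compared and omission of each library. Promoter sequences are from RefSeq (GRCm38.p6).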

Additional observations from a re-analysis of the deposited data

Results flagged for a closer look

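The second gene model of Entpd1, joined with the processed pseudogene Gm8783 (chromosome 19, 40560880 to 40624574, plus strand), entered no comparison because another model carries the name Entpd1 alone. It was listed at 13.721 FPKM in OGD_Con replicate 1 and at 1.2499 FPKM in OGD_Con replicate 2. Both lay above its levels in the libraries without OGD, which were 0.0753 to 0.305 FPKM. OGD_PARP14 had 0.777 and 0.273 FPKM. In OGD_Con replicate 1 this model exceeded the Entpd1 model used in the report, which had 9.99 FPKM there. The libraries of OGD_Con thus differ from each other more in the second model than in the first, and the cause was not tested.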

How the results depend on the processing

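Of 736 recomputed member fold changes 0 turned from one called direction to the other and 703 stayed on their side of the threshold. A call was lost by 14 and gained by 19, and 38 uncalled values changed sign. Only Ampd3 was called in the main fit, so all 14 losses were Ampd3 calls. Ampd3 was called in 10 of 18 settings for OGD_Con against Con and in 11 of 17 for the mean OGD effect. The setting that takes the gene model with the highest mean used the same member models as the main fit. With the replicate block, OGD_Con against Con called 0 members and 0 pathway genes (Ampd3 -1.05, limma adjusted p = 0.102), where 0 of all models were called. Same-numbered libraries deviated together with correlations of 0.0136 to 0.124 over 6 pairs of groups. Such small values do not decide whether the numbers mark pairs. No label names pairs, and the main fit did not use them. A pseudocount of 0.1 also gave 0 members and 0 pathway genes there (Ampd3 limma adjusted p = 0.0550), where 10 of all 11146 models were called. Fitting only the libraries compared gave 2 and 7, where 1790 of all models were called. A pseudocount of 5 called 1 member and 1 pathway gene for OGD_PARP14 against PARP14, where 31 of all 11146 models were called. For the mean OGD effect it called 2 pathway genes, where 814 of all models were called. A filter at 5 FPKM also called 2 there, where 620 of 6821 models were called. Leaving out 1 library at a time gave 0 to 2 members and 0 to 10 pathway genes for OGD_Con against Con, 0 to 4 and 0 to 19 for OGD_PARP14 against PARP14, and 0 to 3 and 0 to 21 for the mean OGD effect. It gave 0 to 4 and 0 to 27 for OGD_PARP14 against OGD_Con, and 0 to 2 and 0 to 17 for the interaction. The upper ends arise without OGD_PARP14 replicate 1 or 2, where calls over all models rose as well, so they are not particular to these genes. Either omission leaves 1 library in the group, assumed to vary like the other groups. Without replicate 1 it is the library that stands apart. Any other causes were not tested. Depth limits the adenosine receptors, at 62.3 estimated fragments or fewer per library.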
